A study of Mus musculus with 27 samples.

Results

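The CXCR3 ligand chemokines are 3 genes, Cxcl9, Cxcl10 and Cxcl11, of 32138 gene names on the array. Their members were found by name: 6 probes carry one of these names, 2 for each gene, of 55681 probes with deposited values. They were followed across all 9 conditions of a study of toll-like receptor (TLR) tolerance in bone marrow-derived macrophages (BMDM). The cells came from wild-type C57BL/6 female mice 6 to 8 weeks old and were grown for 7 days in medium conditioned by L929 cells, a source of macrophage growth factor. Naïve cells received no ligand. Acute cells received 1 ligand for 4 h. Re-stimulated cells were treated with a ligand for 24 h, washed, and given the same ligand again for 4 h. The ligands were LPS (TLR4, 100 ng/ml), Pam3CSK4 (TLR2, 100 ng/ml), Poly(I:C) (TLR3, 10 µg/ml) and CpG DNA (TLR9). The sample labels give CpG at 100 µM, while the methods state a lower concentration.

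CXCL9, CXCL10 and CXCL11 are secreted chemokines that share the receptor CXCR3, which is carried mainly by activated T cells and NK cells. Macrophages are a known source of them. Cxcl9 is best known as a target of interferon gamma. Cxcl10 also answers type I interferon and NF-κB, and is made directly after TLR3 and TLR4 engage the adaptor TRIF. In the C57BL/6 strain the Cxcl11 gene is known to carry a frameshift, so that no functional protein is made, and RefSeq (GRCm38.p6) lists it as a transcribed pseudogene. The 3 genes lie side by side on chromosome 5, between Sdad1 and Nup54, with the large gene Art3 spanning Cxcl10 and Cxcl11.

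Values are the log2 intensities deposited for 25 of 27 arrays. There are 3 arrays per group, apart from re-stimulated LPS and acute Pam3CSK4 with 2. A difference was called where its Benjamini-Hochberg adjusted p from limma was below 0.05 and its size at least 1.5-fold, and a probe was tested if 2 or more arrays of one of the groups compared were marked well above background by the scanner software. Between 43.1% and 55% of probes were well above background on 24 arrays, and 74.9% on naïve replicate 3, which stands apart. Every call against naïve cells given below for a first probe of Cxcl9 or Cxcl10 was also made without that array. Acute LPS was hybridised on 3 slides that held no other group used here and were scanned apart from the 3 slides of all the rest, so that slide and scan day cannot be told apart from stimulus in comparisons with acute LPS. The macrophage markers Emr1 (now named Adgre1), Csf1r, Cd68, Itgam and Cd14 were well above background on all 25 arrays, 5 of 5. Their summed linear intensity was 425000 to 461000 on the acute LPS arrays and 568000 to 595000 on the naïve arrays. NK cell markers summed to 384 to 431 after acute LPS and 216 to 304 in naïve cells, and B cell markers to 102 to 150 and 51 to 94.1, with 108 to 262 after acute Poly(I:C). T cell markers summed to 3580 to 5570 and 3160 to 3800, plasmacytoid dendritic cell markers to 122000 to 198000 and 118000 to 124000, and neutrophil markers to 2900 to 4470 and 3650 to 7130. Within the neutrophil sum, naïve arrays differed widely in Ly6g (7.02 ± 3.89, log2 mean and SD, n = 3) and Mpo (7.52 ± 4.68). The part of any of these cell types in the chemokine levels was not tested. Where the cultures came from is described in more than one way in the methods, as different mice and as independent pools of marrow, and in bulk RNA fewer responding cells and less RNA per cell cannot be told apart.

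The 6 probes are shown because the chemokines differ in what their probes can resolve. The first 30 of the 60 bases of each are given 5′ to 3′ with their mm9 position, all on the minus strand. Capitals mark bases that lie in a run of 20 bases also held, on either strand, by a probe of another gene.
Cxcl9 A_51_P461665 (chr5:92752221-92752250): atgggatttcattattaacttgatcccatc
Cxcl9 A_55_P1977038 (chr5:92752826-92752855): aagtcgtcgtcgttcaaggaagactacata
Cxcl10 A_55_P2016462 (chr5:92775811-92775840): gctttgcattgtatatggaagaacttgtgt
Cxcl10 A_55_P2016459 (chr5:92776646-92776675): ttcctagtgtctagaagtggagcagttatt
Cxcl11 A_55_P2160387 (chr5:92788597-92788626): agaccaggagtttCAGGACAGCCAGGGCTA
Cxcl11 A_55_P2044413 (chr5:92788670-92788699): tatacaccttaatttcagcacttgaaaggc
Only the first Cxcl11 probe shares such runs. It shares them with 7 probes of other genes (Elk1, Med16, Ndor1, Glrx2, Gm10856, 4930455C21Rik and AK140579), a number that 0.612% of all probes reach, and the shared stretch covers bases 14 to 44. The same probe shares a run of 20 bases with 22 of 32851 promoter windows (0.067%), while the Cxcl9 and Cxcl10 probes and the second Cxcl11 probe share one with 0. For each gene the probe listed first has the higher mean and stands for the gene. The second Cxcl10 probe was named after a cDNA clone, AK152967, in the earlier design file used for the acute LPS arrays. On this minus-strand gene it lies 5′ of the first probe, yet its transcript position is later, 1230 against 889. These positions cannot lie on the same transcript, and which transcript the second probe reads was not tested.

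Promoter windows were available from RefSeq (GRCm38.p6) for Cxcl9 and Cxcl10, 2 of the 3 genes. The 250 bases before the start site are printed 5′ to 3′ for the minus strand. Capitals mark matches, on either strand, to the core of the interferon-stimulated response element (ISRE, GAAA, any 2 bases, GAAA), the gamma-activated site (GAS, TTCNNNGAA), the AP-1 site (TGANTCA) and the kappa-B consensus.
Cxcl9 (chr5:92328080-92328329): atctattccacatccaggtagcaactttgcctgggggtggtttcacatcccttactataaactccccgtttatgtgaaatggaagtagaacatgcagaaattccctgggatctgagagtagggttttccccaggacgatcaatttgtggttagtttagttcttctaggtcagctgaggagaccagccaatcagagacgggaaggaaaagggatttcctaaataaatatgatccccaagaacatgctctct
Cxcl10 (chr5:92348890-92349139): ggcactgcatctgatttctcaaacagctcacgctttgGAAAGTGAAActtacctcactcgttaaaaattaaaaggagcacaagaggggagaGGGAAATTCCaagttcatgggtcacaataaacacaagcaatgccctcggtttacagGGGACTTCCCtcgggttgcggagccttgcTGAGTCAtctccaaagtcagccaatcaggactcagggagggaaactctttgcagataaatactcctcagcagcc
The Cxcl10 window holds 1 ISRE core, 213 to 204 bases before the start, which 2.98% of all windows of this length hold. It holds 2 kappa-B matches, at 159 to 150 and 103 to 94 bases before the start, against 3.9% of windows with any, and 1 AP-1 match at 74 to 68 bases, against 6.75%. No 2 of these matches overlap. The Cxcl9 window holds none of the 4 sequences in these exact letters, and neither window holds the GAS letters, which 7.02% of windows hold.

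Cxcl9 was near or below detection in naïve BMDM and rose under 3 of the 4 ligands on acute stimulation. On the first probe the naïve arrays read 1.99, 3.27 and 2.24, none of the 3 well above background. Acute LPS gave 12.65, 12.16 and 12.63 in replicates 1 to 3. Acute Poly(I:C) gave 14.56, 14.42 and 10.45, the third array standing well below the other two. Acute CpG gave 9.15, 8.70 and 10.21, and Pam3CSK4 gave 7.14 in replicate 1 and 3.18, not well above background, in replicate 3. All arrays of LPS, Poly(I:C) and CpG were above all naïve arrays, and Pam3CSK4 overlapped them.

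Since naïve Cxcl9 was below background, its rise is given as a lower bound. It was at least 908-fold for LPS (log2 difference 9.98, SE 0.37, adjusted p = 0.000159, n = 3 and 3), where 26.5% of all tested probes were called. It was at least 1430-fold for Poly(I:C) (10.64, SE 1.16, adjusted p = 0.0101), where 6.03% were called, and at least 104-fold for CpG (6.86, SE 0.51, adjusted p = 0.00459), where 5.72% were called. For the bound each naïve array enters at its own value or at the lowest signal marked well above background on it, whichever is larger. The mean of the stimulated arrays is set against the mean of these. The bounds therefore lie close to the plain ratios, 1010-fold for LPS, 1600-fold for Poly(I:C) and 116-fold for CpG. Each bound holds only for the deposited values and leaves out the spread between arrays. Over the 15 alternatives the log2 difference ran from 6.42 to 10.37 for LPS and 7.08 to 11.99 for Poly(I:C). For CpG it ran from 3.45 to 7.24, so that other processing gave smaller rises than these bounds. The Poly(I:C) call was lost when Poly(I:C) acute replicate 1 or 2 was left out, with adjusted p up to 0.0574. For Pam3CSK4 the first probe was not tested, being above background on 1 array, with a bound of at least 5.68-fold from 2 arrays of which 1 measured it. The second Cxcl9 probe gave 2.91 (SE 0.70, adjusted p = 0.288) for Pam3CSK4, and 8.53, 9.10 and 5.55 for LPS, Poly(I:C) and CpG, all 3 called. It was well above background on 1 of 3 naïve arrays, so these sizes are taken against a level near the limit of detection. In alternatives where the first probe could be tested for Pam3CSK4, its difference ran from 1.54 to 4.64 and was not called.

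The second probe placed the groups likewise, at 2.86 ± 0.72 (SD, n = 3, 1 array well above background) in naïve cells, 11.96 ± 2.19 after acute Poly(I:C), 11.39 ± 0.32 after acute LPS, 8.40 ± 0.77 after acute CpG and 5.77 ± 1.29 (n = 2) after acute Pam3CSK4. Poly(I:C) replicate 3 was again the low array, at 9.43 against 13.33 and 13.10.

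Cxcl10 was well above background in naïve cells and rose most after LPS and Poly(I:C). The first probe read 6.89, 8.89 and 9.96 in naïve replicates 1 to 3. It read 18.58, 18.46 and 18.22 after acute LPS and 18.15, 18.17 and 18.12 after acute Poly(I:C). No array was marked saturated at any of the 6 probes. Acute CpG gave 15.99, 15.89 and 17.97, replicate 3 being the high one, and acute Pam3CSK4 gave 13.94 and 12.47. Every stimulated array of the 4 ligands was above every naïve array.

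Cxcl10 rose by 9.84 on the log2 scale after LPS (SE 0.74, adjusted p = 0.000775), by 9.57 after Poly(I:C) (SE 0.75, adjusted p = 0.00419) and by 8.04 after CpG (SE 0.93, adjusted p = 0.014). These are 918-fold, 759-fold and 263-fold. The second probe gave 9.92, 10.10 and 7.21, all called, with 1 of 3 naïve arrays well above background, and for Poly(I:C) it had the smallest p of all 28426 probes tested. Within slides the Cxcl10 differences from naïve cells were 9.10, 6.99 and 8.01 for CpG, 11.26, 9.28 and 8.16 for Poly(I:C), and 7.05 and 2.51 for Pam3CSK4. The second probe averaged 12.65 ± 0.08 (n = 3) after Poly(I:C), 12.47 ± 0.42 after LPS and 9.76 ± 2.13 after CpG, where the arrays read 8.95, 8.15 and 12.18 and replicate 3 stood apart as on the first probe. The CpG call was lost without naïve replicate 2 or without CpG acute replicate 1 or 2, with adjusted p up to 0.0702. Pam3CSK4 gave 4.62 (SE 1.01, adjusted p = 0.288). No chemokine and no probe at all was called for acute Pam3CSK4 by limma (0% of 27843). At an unadjusted p below 0.05 there were 3458 probes, 12.4%, and 1 of the 2 tested chemokines, Cxcl10, was among them. The Pam3CSK4 difference of Cxcl10 was called in 3 of 14 alternatives, with median scaling, in 1 fit of all 9 groups and with the slide as a random block.

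**Figure D1:**
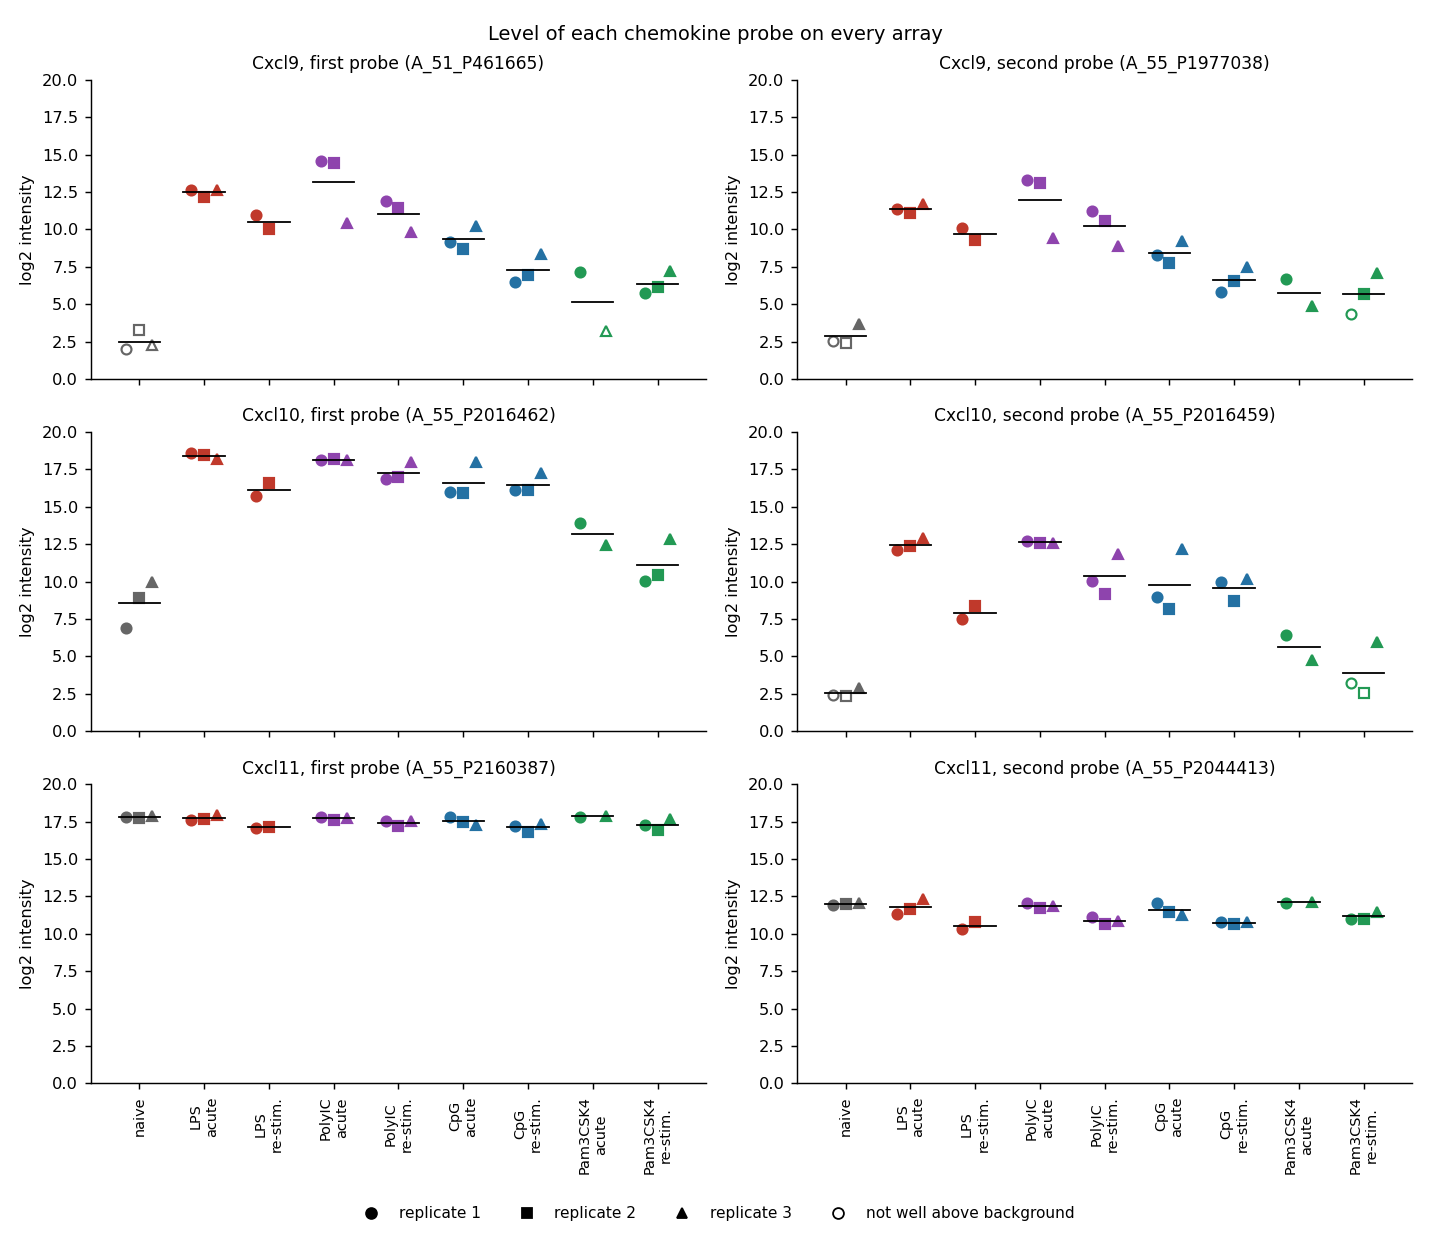
Log2 intensity of each of the 6 chemokine probes on each of 25 arrays, with groups along the horizontal axis, 1 mark per array (shape gives the replicate number, open marks are not well above background) and a black line at the group mean. Cxcl9 and Cxcl10 sit lowest in naïve cells and highest after acute LPS and Poly(I:C), while both Cxcl11 probes span at most 1.55 between group means.

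Cxcl11 stayed within a narrow band. The group means of its first probe lay between 17.12 (LPS re-stimulated) and 17.87 (Pam3CSK4 acute), with 17.81 ± 0.09 (SD, n = 3) in naïve cells, a span of 0.75. The naïve arrays read 17.78, 17.75 and 17.91 and the acute LPS arrays 17.60, 17.71 and 17.97, so that the groups overlap. The 7 probes of other genes that share its sequence spanned 0.40 to 1.14 between group means. Their mean levels ran from 11.66 (AK140579) to 18.39 (Glrx2, rank 2 from the brightest), with Ndor1 at 17.51 (rank 67). The first Cxcl11 probe itself averaged 17.52, rank 66 of 55681 probes. Against naïve cells the acute differences were −0.05 for LPS (95% interval −0.50 to 0.40), −0.29 for CpG (−0.77 to 0.18), 0.06 for Pam3CSK4 (−0.43 to 0.55) and −0.07 for Poly(I:C) (−0.45 to 0.31), none called. Their signs have no stability, since those of LPS, CpG and Poly(I:C) turned positive with median scaling (0.44, 0.54 and 0.54). The median difference of all tested probes was then itself 0.27, 0.43 and 0.31. What part of the signal of the first probe comes from Cxcl11 transcripts was not tested.

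The second Cxcl11 probe shares no such run, but the search was for exact matches only and cannot show that a probe is specific. Its Pearson correlation with the first Cxcl11 probe was 0.905. What part of its signal comes from Cxcl11 transcripts was not tested either. The second probe read 11.95, 12.00 and 12.04 in naïve cells and 10.31 and 10.78 after LPS re-stimulation. It was lower in re-stimulated than in naïve cells, with log2 differences of −1.45 for LPS (adjusted p = 0.0355), −1.25 for CpG (adjusted p = 0.01) and −1.13 for Poly(I:C) (adjusted p = 0.0227), and these 3 were called. It was also called lower in re-stimulated than in acute cells for LPS (fell by 1.23, adjusted p = 0.0387) and for Poly(I:C) (fell by 1.02, adjusted p = 0.0432). None of these 5 calls was made with median scaling, a setting added for the second probes after the data were seen, where the differences kept a negative sign (−0.77, −0.11, −0.23, −0.98 and −0.69). That scaling moved all probes together, and the median difference of all tested probes was 0.38, 0.81, 0.58, 0.08 and 0.26 in these comparisons. Each difference of the second probe lay below that median. The first probe gave −0.69, −0.68 and −0.40 for the same 3 comparisons with naïve cells, none called. With median scaling these turned to 0.15, 0.45 and 0.46, each still below the median of all tested probes. The LPS difference was called in 4 of 14 alternatives, with normexp (adjusted p = 0.0272), in 1 fit of all 9 groups (adjusted p = 0.0236), with the slide as a random block (adjusted p = 0.0111) and without naïve replicate 3 (adjusted p = 0.0478). The CpG difference was called in 3 of 15, the first 3 of these (adjusted p = 0.027, 0.0126 and 0.00358).

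Re-stimulation was set against acute stimulation with the same ligand to ask how far the level after the second dose lay below that after the first. No group received the 24 h treatment without the second dose. Transcript left from the first treatment and a second response therefore cannot be told apart. For LPS both Cxcl9 and Cxcl10 fell. Cxcl9 read 10.98 and 10.04 after re-stimulation, below the lowest acute array (12.16), a fall of 1.97 (SE 0.33, adjusted p = 0.00704, 3.93-fold, n = 2 and 3). Cxcl10 read 15.71 and 16.57, below the lowest acute array (18.22), a fall of 2.28 (SE 0.30, adjusted p = 0.00321, 4.87-fold). These 2 of 3 chemokines stand beside 34.2% of all tested probes called. Between the same arrays the summed macrophage markers were at 607000 to 639000 after re-stimulation against 425000 to 461000 in acute cells. NK cell markers were at 199 to 235 against 384 to 431 and B cell markers at 64.7 to 84.7 against 102 to 150. Neutrophil markers summed to 6610 to 13800 against 2900 to 4470, but their genes differed. On the log2 scale Ly6g averaged 12.22 ± 0.78 against 3.24 ± 0.47, with no acute LPS array well above background. Elane averaged 12.20 against 11.86 and Mpo 4.83 against 4.97. What part any of these cell types had was not tested. The second Cxcl10 probe, which read 12.08 to 12.91 after acute LPS and 7.47 and 8.37 after re-stimulation, fell by 4.54 (SE 0.37, adjusted p = 0.000741), against 2.28 on the first. The 2 probes may read different transcripts, so that these sizes need not measure the same RNA. With the slide as a random block, the fit that allows for slides of their own, Cxcl9 had an adjusted p of 0.172 (difference −2.14) and Cxcl10 of 0.0539 (−2.03), so that neither was called. In 1 fit of all 9 groups Cxcl9 was not called either (adjusted p = 0.178).

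The first Cxcl11 probe differed by −0.64 in the same comparison (adjusted p = 0.0564), not called, but was called with normexp (adjusted p = 0.0194), in 1 fit of all 9 groups (adjusted p = 0.0215) and with the slide as a random block (adjusted p = 0.0229). For the other ligands no chemokine gene was called on its first probe, and at an unadjusted p below 0.05 limma gave 1 of 3 for CpG (Cxcl9), beside 21.6% of all probes, and 1 of 3 for Poly(I:C) (Cxcl10), beside 26.2%. CpG gave 6.51, 6.95 and 8.33 for Cxcl9 after re-stimulation, every array below the acute arrays, a difference of −2.09 (SE 0.57, adjusted p = 0.0958, with 3.56% of probes called). Within slides the Cxcl9 differences for CpG were −2.64, −1.75 and −1.88. The replicate number, which is also the slide for these groups, was taken to pair the CpG arrays. With it as a block in limma the difference of −2.09 was called (SE 0.23, adjusted p = 0.0302). Cxcl10 under CpG read 16.10, 16.10 and 17.25 against 15.99, 15.89 and 17.97, overlapping groups with a difference of −0.13 and a 95% interval from −1.62 to 1.35 (−2.63 to 2.29 on the second probe), which does not show that the level was the same.

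Poly(I:C) re-stimulation gave 11.91, 11.43 and 9.80 for Cxcl9, which overlapped the acute arrays because of the low acute replicate 3, and the difference was −2.09 (SE 1.19, adjusted p = 0.315, with 4.93% of probes called). Without Poly(I:C) acute replicate 3 it was −3.44 and called (adjusted p = 0.0403). Within slides it was −2.65, −2.98 and −0.65, slide 3 being the small one. Cxcl10 gave 16.86, 16.96 and 18.00, below all 3 acute arrays, a difference of −0.88 (SE 0.32, adjusted p = 0.155) on the first probe and −2.31 (SE 0.65, adjusted p = 0.0923) on the second. Its slide differences on the first probe were −1.29, −1.21 and −0.13, slide 3 again the smallest. Without Poly(I:C) re-stimulated replicate 3 the first probe gave −1.24 and was called (adjusted p = 0.0157). For Pam3CSK4 neither gene was called, nor was any probe (0%). Cxcl9 gave 1.19 (95% interval −1.68 to 4.06) and Cxcl10 −2.10 (−4.38 to 0.19), and 3461 probes (13.6%), none a first chemokine probe, had an unadjusted p below 0.05.

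Whether the fall on re-stimulation differed between ligands was tested in all 6 pairs of ligands, and limma called 0 of 3 chemokines in each. The share of probes called was 7.24% for LPS and CpG, 8.2% for LPS and Pam3CSK4, 4.09% for LPS and Poly(I:C), 0.00378% for CpG and Pam3CSK4, 0.0396% for CpG and Poly(I:C) and 0.141% for Pam3CSK4 and Poly(I:C). At an unadjusted p below 0.05, Cxcl9 alone passed, for CpG and Pam3CSK4 (−3.28, SE 1.48, adjusted p = 1), beside 0.907% of probes, and for Pam3CSK4 and Poly(I:C) (3.28, SE 1.48, adjusted p = 0.381), beside 12% of probes. For Cxcl10 the change with LPS minus that with CpG was −2.15 (SE 1.12, 95% interval −4.50 to 0.20, adjusted p = 0.249), and −4.38 on the second probe (SE 1.37, adjusted p = 0.0585). Falls with LPS and Poly(I:C) differed for Cxcl9 by 0.12, with an interval from −2.98 to 3.22. These intervals do not show that the ligands act alike.

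**Figure D2:**
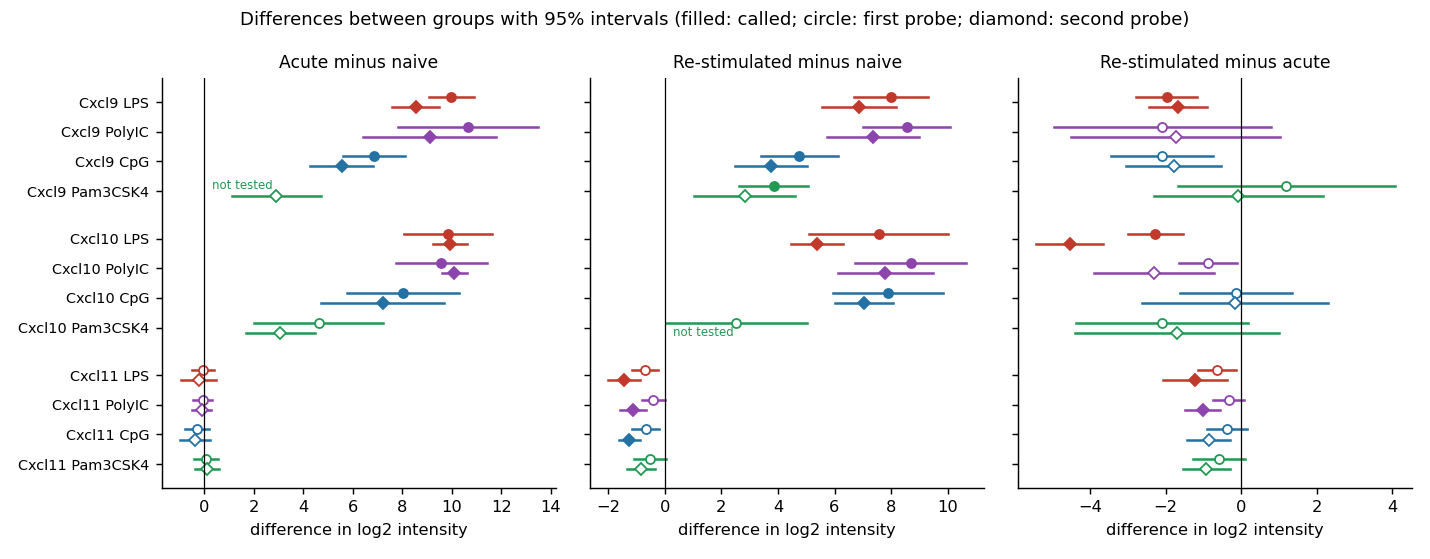
Difference in log2 intensity between groups for each chemokine and ligand, with bars for the 95% interval from limma, circles for the first and diamonds for the second probe, and filled marks where the difference was called. Against naïve cells Cxcl9 and Cxcl10 lie far to the right of 0 for LPS, Poly(I:C) and CpG, and for these genes Pam3CSK4 lies nearer to 0 than the other ligands.

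After the second dose Cxcl9 and Cxcl10 were well above the naïve level for most ligands, and how much was left from the first 24 h was not measured. Against naïve cells, re-stimulated Cxcl9 was higher by at least 231-fold for LPS (adjusted p = 0.00949), 336-fold for Poly(I:C) (adjusted p = 0.00428), 24.4-fold for CpG (adjusted p = 0.00928) and 12.9-fold for Pam3CSK4 (adjusted p = 0.023). Cxcl10 was higher by 7.56 on the log2 scale for LPS (adjusted p = 0.0275), 8.69 for Poly(I:C) (adjusted p = 0.00701) and 7.90 for CpG (adjusted p = 0.00664), and by 2.53 for Pam3CSK4, not called (adjusted p = 0.193). The Cxcl9 bounds hold only for the deposited values. In the alternatives its log2 difference ran from 4.50 to 8.48 for LPS and 5.03 to 9.17 for Poly(I:C). For CpG it ran from 1.74 to 5.33 and for Pam3CSK4 from 1.17 to 4.24. Of all probes 5.66%, 9.03%, 13.1% and 5.36% were called for LPS, Poly(I:C), CpG and Pam3CSK4. Both LPS calls were lost when either LPS re-stimulated array was left out, and that of Cxcl10 also without naïve replicate 2, with all 27 arrays and without the filter on dim probes. The Pam3CSK4 call of Cxcl9, on arrays reading 5.72, 6.14 and 7.20, was lost without naïve replicate 1 or 2 and without Pam3CSK4 re-stimulated replicate 1 or 2, with adjusted p up to 0.0829, and the second Cxcl9 probe was not called (2.83, adjusted p = 0.0801).

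Ranked by group mean, Cxcl9 ran from acute Poly(I:C) (13.14 ± 2.33, SD, n = 3) and acute LPS (12.48 ± 0.28, n = 3) through re-stimulated Poly(I:C) (11.05 ± 1.11), re-stimulated LPS (10.51 ± 0.66, n = 2), acute CpG (9.35 ± 0.77), re-stimulated CpG (7.26 ± 0.95), re-stimulated Pam3CSK4 (6.35 ± 0.76) and acute Pam3CSK4 (5.16 ± 2.80, n = 2) to naïve cells (2.50 ± 0.68). Neighbours in this order did not overlap only between acute LPS and re-stimulated Poly(I:C), and between acute and re-stimulated CpG. Cxcl10 ran from acute LPS (18.42 ± 0.18) and acute Poly(I:C) (18.15 ± 0.03) through re-stimulated Poly(I:C) (17.27 ± 0.63), acute CpG (16.62 ± 1.17), re-stimulated CpG (16.48 ± 0.66), re-stimulated LPS (16.14 ± 0.61) and Pam3CSK4, acute (13.20 ± 1.04) and re-stimulated (11.11 ± 1.51), to naïve cells (8.58 ± 1.56). On this first probe re-stimulated LPS thus stood next to CpG for Cxcl10, whereas acute LPS stood at the top. The second Cxcl10 probe placed re-stimulated LPS (7.92 ± 0.64) below every re-stimulated CpG array (9.59 ± 0.79). It also placed acute Poly(I:C) (12.65 ± 0.08) above acute LPS (12.47 ± 0.42). Over 25 arrays the first probes of Cxcl9 and Cxcl10 had a Pearson correlation of 0.876, and the 2 probes of a gene 0.985 for Cxcl9, 0.963 for Cxcl10 and 0.905 for Cxcl11, as a description of arrays that share groups and slides.

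Ligands were compared directly in 9 pairs of groups that share slides. Among acute cells, Cxcl10 was lower after Pam3CSK4 than after Poly(I:C), with a log2 difference of −4.94 (SE 0.45, adjusted p = 0.0171, with 2.42% of probes called), and −7.03 on the second probe. That call was lost with all 27 arrays, without Pam3CSK4 acute replicate 3 and without Poly(I:C) acute replicate 1 or 2. Cxcl9 differed by −7.98 in the same pair (95% interval −12.43 to −3.53, adjusted p = 0.106). CpG and Poly(I:C) were not told apart on Cxcl9 (−3.79, interval −6.54 to −1.04, adjusted p = 0.232) or Cxcl10 (−1.53, −2.88 to −0.18, adjusted p = 0.3), with 0.173% of probes called and, at an unadjusted p below 0.05, 2 of 3 chemokines beside 13.9% of probes. On slides 1 to 3 the Cxcl9 differences were −5.41, −5.71 and −0.24 and those of Cxcl10 −2.16, −2.28 and −0.15, so that CpG and Poly(I:C) lay close together on slide 3 for both genes. Without Poly(I:C) acute replicate 3 the Cxcl9 difference was called, as was that of Cxcl10 without CpG acute replicate 3. CpG and Pam3CSK4 differed by 4.19 for Cxcl9 and 3.41 for Cxcl10, with 0% of probes called, and both genes had an unadjusted p below 0.05, as did 3.47% of probes.

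Among re-stimulated cells, Pam3CSK4 gave less of both chemokines than Poly(I:C), with differences of −4.70 for Cxcl9 (SE 0.63, adjusted p = 0.0123) and −6.17 for Cxcl10 (SE 0.75, adjusted p = 0.00916), with 4.11% of probes called. With the replicate block, which applies to this pair, Cxcl9 was not called (adjusted p = 0.0758), nor was it without Pam3CSK4 re-stimulated replicate 1 or 2. CpG gave less Cxcl9 than Poly(I:C), a difference of −3.79 (SE 0.67, adjusted p = 0.0466, with 2.47% called), a call lost with the replicate block (adjusted p = 0.111) and without any 1 of the 3 CpG re-stimulated arrays or Poly(I:C) re-stimulated replicate 1 or 2. The Cxcl10 difference of that pair was −0.79 (interval −1.84 to 0.26). LPS gave more Cxcl9 than Pam3CSK4 by 4.16 (SE 0.51, adjusted p = 0.0377, with 0.909% called), lost without either LPS array or without Pam3CSK4 re-stimulated replicate 1 or 2. Cxcl10 in that pair differed by 5.03 (adjusted p = 0.0736). It also differed by 5.38 between CpG and Pam3CSK4 (adjusted p = 0.0818, with 0% of probes called and, at an unadjusted p below 0.05, 1 of 3 chemokines beside 4.32% of probes), which was called with the replicate block that applies there (adjusted p = 0.029). LPS and Poly(I:C) differed by −0.54 for Cxcl9 (interval −2.25 to 1.17) and −1.13 for Cxcl10, with 0.957% called and neither among them, and LPS and CpG by 3.25 for Cxcl9 (adjusted p = 0.107) and −0.34 for Cxcl10 (interval −1.43 to 0.74), with 0.316% called and neither among them. On the second Cxcl10 probe LPS and Poly(I:C) differed by −2.42 (adjusted p = 0.32) and LPS and CpG by −1.67 (adjusted p = 0.235), neither called. In each of these last pairs 1 of 3 chemokines had an unadjusted p below 0.05 by limma on its first probe. That stood beside 12.9% of probes for LPS and Poly(I:C) and 15.2% for LPS and CpG.

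The receptor side was read from the same arrays. Cxcr3, the receptor of all 3 chemokines, had a probe well above background on all 25 arrays, at 9.54 ± 0.85 (n = 3) in naïve cells. It was lower after acute LPS (−1.97, adjusted p = 0.0204), beside 26.5% of all tested probes called. Re-stimulated cells were lower than naïve cells by a difference of −2.29 for CpG (adjusted p = 0.0248) and −3.42 for Poly(I:C) (adjusted p = 0.0191). These stand beside 13.1% and 9.03% of probes called. The mean was also below the naïve one in re-stimulated LPS (6.68 ± 0.38, n = 2) and Pam3CSK4 (8.23 ± 0.49, n = 3) cells. This is the opposite direction to Cxcl9 and Cxcl10. Pf4, encoding a platelet chemokine that is a further CXCR3 ligand, was not called after acute LPS (−2.57, adjusted p = 0.0945) and was higher in re-stimulated than in acute LPS cells by 3.25 (adjusted p = 0.00221). Dpp4, the protease that trims these chemokines, was too dim to be tested. No probe carries the name Ackr3, the scavenging receptor, and probes under any other name of this receptor were not read.

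Of 4 interferon genes 2 were bright enough to be tested in acute cells, Ifnb1 and Ifna2. Ifnb1, encoding interferon beta, rose by 10.33 after LPS (adjusted p = 0.00028), 8.63 after Poly(I:C) (adjusted p = 0.00109) and 6.86 after CpG (adjusted p = 0.0233), from 3.00 ± 0.11 in naïve cells, where 1 of 3 arrays was well above background, so that these sizes are taken against a level near the limit of detection. It gave 2.56 after Pam3CSK4, not called (adjusted p = 0.292). On re-stimulation it fell by 4.45 for LPS (adjusted p = 0.00409) and did not pass for CpG (−0.06, adjusted p = 0.983) or Poly(I:C) (0.84, adjusted p = 0.406). Ifng, encoding interferon gamma, was not tested, being above background on too few arrays of every group compared.

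The counts of listed genes that follow stand beside 26.5% of all tested probes called for acute LPS, 5.72% for CpG, 6.03% for Poly(I:C) and 0% for Pam3CSK4, and nothing is read from shares near these. Of 7 interferon receptor and kinase genes, 2 were higher and 2 lower after acute LPS, 1 was higher after CpG and after Poly(I:C), and none after Pam3CSK4. Jak2, a kinase of the interferon gamma receptor, was the one shared by the 3 ligands (2.93, 2.46 and 2.85 for LPS, Poly(I:C) and CpG). Of 7 interferon transcription factor genes, 2 were higher after LPS, 2 after Poly(I:C), 1 after CpG and 0 after Pam3CSK4. Irf1 rose by 3.48, 3.89 and 2.71 for LPS, Poly(I:C) and CpG, and its differences on re-stimulation were −3.21, −1.79 and −2.15, all called. Irf7 moved the other way on re-stimulation, higher by 2.22 for LPS (adjusted p = 0.00282) and 2.05 for Poly(I:C) (adjusted p = 0.0424).

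All 3 feedback inhibitor genes (Socs1, Socs3 and Usp18) were higher after acute LPS and after Poly(I:C), 2 of 3 after CpG and 0 of 3 after Pam3CSK4. Socs1, an inhibitor of JAK signalling, rose by 5.96, 6.69 and 4.63 for LPS, Poly(I:C) and CpG. Of 5 NF-κB genes, 4 were higher after acute LPS, 2 after CpG, 1 after Poly(I:C) and 0 after Pam3CSK4, and 4 of 5 were lower in re-stimulated than in acute LPS cells, where 34.2% of all tested probes were called and the slides differ. The median difference over the list after acute LPS was 2.92 for NF-κB and 5.66 for feedback inhibitors, against 9.84 for the 3 chemokines and −0.01 for all tested probes. Among the neighbouring genes 5 were tested in acute cells. Naaa (0.88) and Nup54 (1.03) were called higher after LPS, 2 of 5 beside 26.5% of all tested probes, and none after the other ligands, although Nup54 gave 1.11 after CpG (adjusted p = 0.0545), and Art3, which spans Cxcl10 and Cxcl11, gave 1.04 after LPS (adjusted p = 0.0836).

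**Figure D3:**
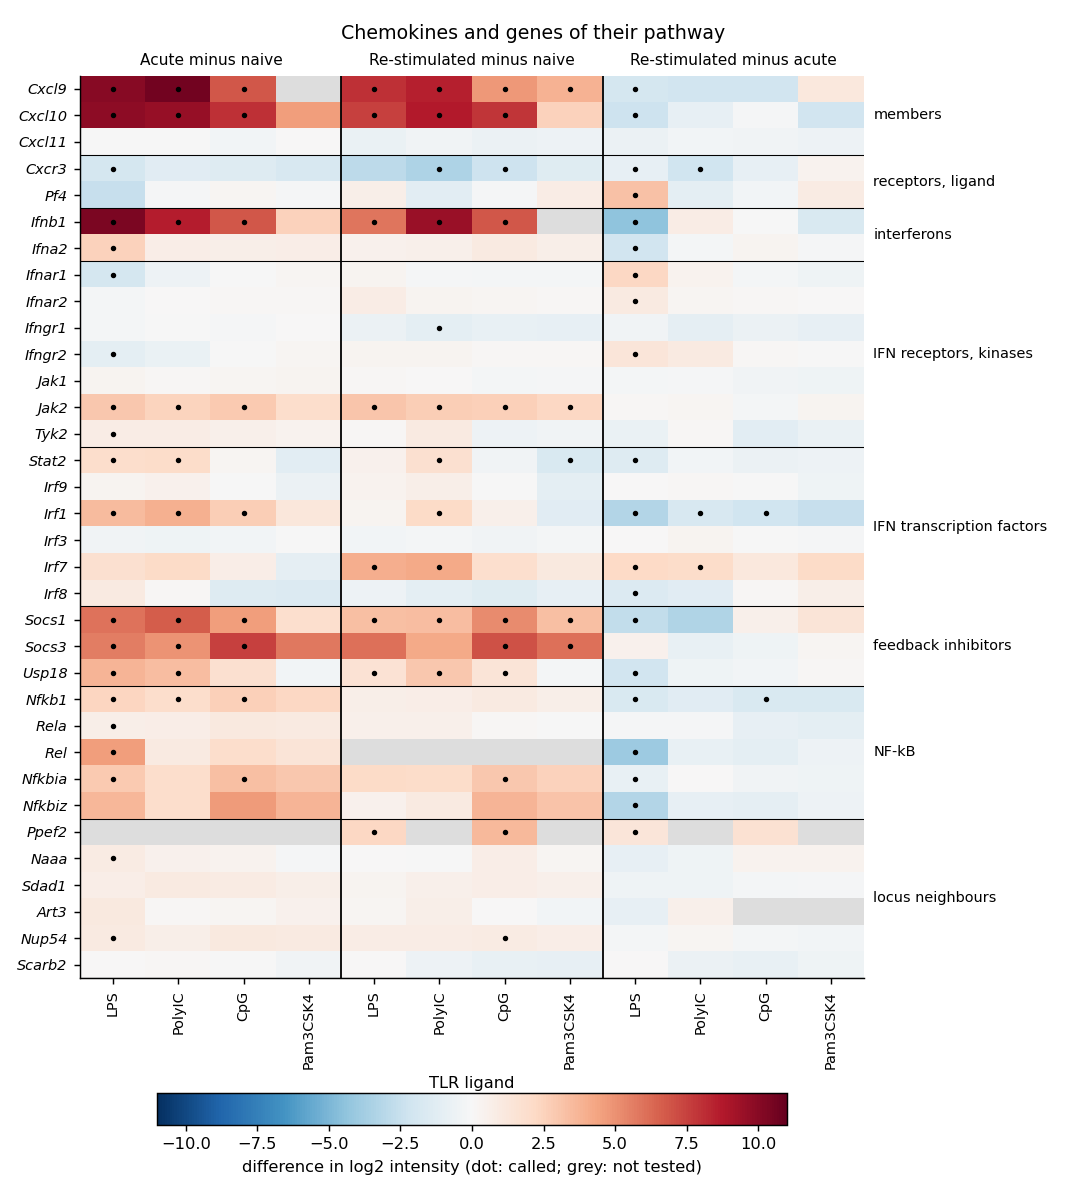
Difference in log2 intensity (colour) for the 3 chemokines and listed genes of their pathway and locus, in 12 comparisons, with a dot where the difference was called and grey where the gene was not tested. In acute cells Ifnb1, Cxcl9 and Cxcl10 are called for LPS, Poly(I:C) and CpG and not for Pam3CSK4, where Cxcl9 was not tested, and the locus neighbours at the bottom hold 2 calls there, both for LPS.

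The genes with a probe that followed the first probe of each chemokine most closely over the 25 arrays are given by Pearson correlation. Each gene is given at its best-correlated probe, as a description. For Cxcl9 they were Serpina3g (0.969), the guanylate-binding protein genes Gbp6 (0.956) and Gbp4 (0.956), Prpf38a (0.953) and AW112010 (0.95). For Cxcl10 they were a probe named only by its genome position (0.958), Gbp5 (0.952), Ifnb1 (0.945), the chemokine gene Ccl12 (0.938) and Peli1 (0.931). For Cxcl11 they were Hccs (0.967), Rn4.5s (0.965), Ndor1 (0.964), A730011L01Rik (0.962) and Gla (0.95). Ndor1 is among the genes whose probe shares a 20-base run with a Cxcl11 probe, the longest stretch in common being 24 bases, and the Rn4.5s probe shares 19. No gene listed for Cxcl9 or Cxcl10 shared such a run with them. Without the acute LPS arrays (n = 22) the leading gene was unchanged for Cxcl9 (Serpina3g, 0.967) and Cxcl10 (the probe named by position, 0.956) and was Rn4.5s for Cxcl11 (0.97). Over the 9 group means Serpina3g again led for Cxcl9 (0.99), and Ccl12, which was listed for Cxcl10 above, was among the 5 listed (0.976).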

How the data were processed

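RNA of each culture was hybridised to a 1-colour Agilent mouse array with probes of 60 bases. The authors corrected the background (RMA method), quantile normalized the arrays in limma and deposited log2 values for 25 of 27 arrays, having left out 2 as low in quality. The deposited scanner files hold linear intensity per spot, from which detection flags, names and alternative values were taken. Their filter of probes by genome annotation was not repeated. Members and gene lists were chosen with earlier results of these data known. The highest-mean probe stands for a gene, except among the most alike genes, where the best-correlated probe does. Values of 1 listed gene are not reported here.

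Groups came from the sample titles. With R 4.3.3, limma 3.58.1 was run for each pair of groups on the deposited log2 values, over each probe detected in 2 or more arrays of one of the groups. The change on re-stimulation was compared between ligands in 1 fit of all 9 groups. Calls needed a Benjamini-Hochberg adjusted p below 0.05 and 1.5-fold. Genes named were all 3 members, listed pathway genes and the 5 most alike by Pearson correlation. Scripts were tested on simulated data. Numbers of arrays limit the precision, and p-values measure the spread between these arrays. Alternatives were all 27 arrays, normexp, 75th percentile and median scaling, no detection filter, a replicate block, 1 fit of 9 groups, slide as a random block and leaving out each array.

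After subtracting group means, arrays with the same number correlated above 0.1 in all 3 pairs for CpG against naïve (0.190 to 0.238), CpG re-stimulated against acute (0.215 to 0.313), Poly(I:C) re-stimulated against acute (0.209 to 0.359) and, among others, the re-stimulated pairs CpG and Pam3CSK4 (0.290 to 0.545), CpG and Poly(I:C) (0.107 to 0.260) and Pam3CSK4 and Poly(I:C) (0.115 to 0.141). There the number is also the slide, and no sample label says that it marks a culture. Shared cultures and shared slides therefore cannot be told apart, and the numbers were taken as pairs. Those of CpG re-stimulated against naïve (0.0625 to 0.193) were not.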

Additional observations from a re-analysis of the deposited data

Results flagged for a closer look

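The 2 arrays without deposited values were read after remaking the values of all 27 arrays from the scanner files, since they lie outside the comparisons. On them Cxcl10 read 14.68 in LPS re-stimulated replicate 3 and 12.30 in Pam3CSK4 acute replicate 2, above the naïve range of 7.10 to 10.04 in the same values. Cxcl9 read 10.91 in LPS re-stimulated replicate 3, against a naïve range of 2.24 to 3.54. In Pam3CSK4 acute replicate 2 Cxcl9 read 2.11, below that range. These arrays had 92.4% and 99.9% of probes well above background, and the part of their quality in these values was not tested.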

How the results depend on the processing

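Counts are of chemokines called, of 3, with A and R for pairs of ligands in acute and re-stimulated cells, and the number of arrays limits them all. Median scaling moved the median of all probes by up to 0.80. It gave 1 for Pam3CSK4 acute against naïve, CpG re-stimulated against acute, LPS against CpG and CpG against Pam3CSK4 (R), and 2 for Pam3CSK4 re-stimulated against naïve, CpG or Poly(I:C) against Pam3CSK4 (A) and LPS against Pam3CSK4 (R). All 27 arrays gave 1 for LPS re-stimulated against naïve and 0 for Pam3CSK4 against Poly(I:C) (A) and LPS against Pam3CSK4 (R). No detection filter gave 1, 0 and 0 for LPS re-stimulated against naïve, against Pam3CSK4, and CpG against Poly(I:C) (R), the last also 0 at the 75th percentile. Normexp gave 2 for LPS and 1 for CpG against Pam3CSK4 (R). With 1 fit of 9 groups and with the slide as a random block the counts were 1 for Pam3CSK4 acute against naïve, CpG against Poly(I:C) (A) and CpG against Pam3CSK4 (R), and 2 for Pam3CSK4 re-stimulated against naïve and acute against Poly(I:C). The random block also gave 1 for LPS re-stimulated against acute, which was Cxcl11, and 2 for LPS against Pam3CSK4.

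The replicate block gave 1 for CpG re-stimulated against acute, CpG against Pam3CSK4 and Pam3CSK4 against Poly(I:C) (R), 0 for CpG against Poly(I:C) (R), and, where the numbers were not taken as pairs, 0 for Pam3CSK4 re-stimulated against naïve and Pam3CSK4 against Poly(I:C) (A) and 2 for LPS against Pam3CSK4 (R). It changed no other count by over 1.5 times.

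Leaving out 1 array gave 1 to 2 for CpG and Poly(I:C) acute against naïve and for Pam3CSK4 against Poly(I:C) (R), 0 to 3 for LPS re-stimulated against naïve, where Cxcl11 was called without naïve replicate 3 (−0.64, adjusted p = 0.0478), 0 to 2 for Pam3CSK4 against Poly(I:C) (A) and LPS against Pam3CSK4 (R), and 0 to 1 for Poly(I:C) re-stimulated against acute, Pam3CSK4 re-stimulated against naïve, CpG against Poly(I:C) (both states), and LPS against CpG and CpG against Pam3CSK4 (R). Other counts did not move.

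Signs turned only for differences not called. Cxcl11 against naïve turned to 0.18, 0.04 and 0.15 for acute LPS, CpG and Poly(I:C) at the 75th percentile, to 0.44, 0.54 and 0.54 with median scaling, and for re-stimulated LPS, CpG, Pam3CSK4 and Poly(I:C) to 0.15, 0.45, 0.15 and 0.46. Pam3CSK4 acute turned to −0.04 with 27 arrays. Between ligands, median scaling turned Cxcl11 to 0.29 (CpG and Pam3CSK4), 0.00 (CpG and Poly(I:C)) and −0.29 (Pam3CSK4 and Poly(I:C)) in acute cells, and 0.30 (CpG and Pam3CSK4) and 0.00 (LPS and Pam3CSK4) in re-stimulated cells, and Cxcl10 of CpG re-stimulated against acute to 0.34. For re-stimulated LPS and CpG, Cxcl11 turned to 0.22 (27 arrays), 0.16 (75th percentile), 0.10 (block) and 0.02 (random block), and Cxcl10 to 0.04 (block). For LPS and Pam3CSK4 it turned to 0.07 (27 arrays) and 0.02 (block), and for Pam3CSK4 and Poly(I:C) to 0.01 (75th percentile). Among differences in the change on re-stimulation, Cxcl9 of LPS and CpG turned to −0.22 (normexp), −0.09 (block) and −0.05 (random block), LPS and Poly(I:C) to −0.09 and −0.05 in the last 2, and CpG and Poly(I:C) to −0.01 (values made again), −0.19 (75th percentile) and −0.10 (median scaling). Cxcl11 turned to 0.02 (LPS and CpG), −0.07 (CpG and Pam3CSK4) and 0.01 (Pam3CSK4 and Poly(I:C)) at the 75th percentile and 0.09 (LPS and Pam3CSK4) with 27 arrays, and Cxcl10 of LPS and Pam3CSK4 to 0.03 with the replicate block.

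Leaving out 1 array turned signs, with ranges of −0.16 to 0.03 for Cxcl11 of acute LPS against naïve, −0.52 to 0.54 for Cxcl10 of CpG re-stimulated against acute and −0.79 to 3.17 for Cxcl9 of Pam3CSK4 re-stimulated against acute. Among re-stimulated cells these were −0.77 to 0.08 for Cxcl10 and −0.16 to 0.10 for Cxcl11 of LPS and CpG, and for Cxcl11 −0.34 to 0.02 (LPS and Pam3CSK4), −0.32 to 0.03 (CpG and Pam3CSK4) and −0.31 to 0.05 (Pam3CSK4 and Poly(I:C)). For differences in the change they were for Cxcl9 −0.35 to 0.65 (LPS and CpG), −0.59 to 1.46 (LPS and Poly(I:C)) and −0.71 to 1.35 (CpG and Poly(I:C)), for Cxcl10 −0.92 to 0.68 (LPS and Pam3CSK4), and for Cxcl11 −0.23 to 0.13 (LPS and Pam3CSK4) and −0.17 to 0.10 (CpG and Poly(I:C)).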
